A study of Mus musculus with 10 samples.

Results

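Ssbp2 and 9 genes around it were followed through RNA sequencing of MLL-AF9-transformed mouse bone marrow cells. The 10 genes were found by symbol among 52550 genes of the deposited count table: the single-stranded DNA-binding protein genes Ssbp2, Ssbp3 and Ssbp4, the antisense RNA 4833422C13Rik at the end of Ssbp2, and Ldb1, Lmo2, Lyl1, Tal1, Gata2 and Tcf3, whose proteins form the LDB1 transcription complex. Ssbp2 and 4833422C13Rik were chosen by their measured change with doxycycline (DOX) in MLL-AF9-i139 cells, so that change is described and not tested. The other 8 genes were chosen for their known function. Of the 10 genes, 8 had at least 10 counts in total and were measured. Lmo2 was the lowest of the measured genes with 458 counts, and Tal1 and Lyl1 lay below the limit with 6 and 0 counts.

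All cells came from hematopoietic stem and progenitor cell (HSPC)-enriched marrow of wild-type C57BL/6 mice aged 8 to 20 weeks. They carried retroviral MLL-AF9, a fusion oncogene of acute myeloid leukemia, and retroviral tetR-KRAB, a DOX-released repressor. MLL-AF9-i139 cells further carried a lentiviral vector for DOX-inducible miR-139, and 3 picked colonies (clones 1, 2 and 3) were each sequenced without DOX and with 5 µg/mL DOX. The treatment lasted 48 h in clones 1 and 2 and 72 h in clone 3, and no time is given for the untreated cultures of these clones, so clone and time cannot be told apart. MLL-AF9-ieGFP cells carried inducible eGFP in place of miR-139 and are 1 clone, sequenced with and without 5 µg/mL DOX at 48 h and at 72 h. The protocol text attached to these libraries names the miR-139 vector for them too, whereas their titles and tissue labels give inducible eGFP, and the latter were followed. The 2 libraries of MLL-AF9-ieGFP per condition are thus time points and not independent clones.

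LDB1 is an adaptor without DNA-binding activity that dimerizes and so brings enhancers and promoters together. In blood progenitors it holds the LIM-only protein LMO2, which in turn binds a basic helix-loop-helix pair of TAL1 or LYL1 with an E protein such as TCF3 (E2A), next to a GATA factor, in early progenitors GATA2. SSBP proteins bind LDB1 and protect it from degradation after ubiquitination by RLIM, and the complex is known for its role in the maintenance of hematopoietic stem cells.

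The mature strands of miR-139 that the construct induces are shown first, since the annotated Ssbp2 mRNA holds a seed match to each of them. They lie on the plus strand at chr7:101475382-101475403 (5p) and chr7:101475418-101475439 (3p) of GRCm38 (sequences from RefSeq, GRCm38.p6), and capitals mark the seed, bases 2 to 8.
miR-139-5p: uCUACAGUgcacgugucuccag
miR-139-3p: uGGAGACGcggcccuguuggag

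Matches of 7 bases or more to these seeds were searched in the longest annotated 3′ UTR of each gene, from the GENCODE transcripts. A match pairs with bases 2 to 8, or with bases 2 to 7 and has an A opposite base 1. The match of Tcf3 is of the latter kind, and those of Ssbp2 and Gata2 are of the former. The 3′ UTR of Ssbp2 (2734 bases) held 1 match to miR-139-5p and 1 to miR-139-3p. That of Gata2 (1538 bases) and that of Tcf3 (618 bases) each held 1 match to miR-139-3p. No match was found in the 3′ UTRs of Ssbp3, Ssbp4, Ldb1, Lmo2, Lyl1 and Tal1. Each match is printed in capitals with its flanks, read 5′ to 3′ on the strand of the mRNA, to show the letters that the seeds can pair with.
Ssbp2, miR-139-5p match, chr13:91701508-91701514, plus strand: acttaaACTGTAGcaataa
Ssbp2, miR-139-3p match, chr13:91701614-91701620, plus strand: ttacagCGTCTCCcaggga
Gata2, miR-139-3p match, chr6:88206189-88206195, plus strand: gggaaaCGTCTCCcagatc
Tcf3, miR-139-3p match, chr10:80410046-80410052, minus strand: agacagGTCTCCAtcgaag

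Such matches are common. Of the 13995 genes tested that have an annotated 3′ UTR, 21.7% held a match to miR-139-5p, 15.9% one to miR-139-3p and 5.8% one to each. Among the 1659 tested genes with a 3′ UTR within 500 bases of the length of that of Ssbp2, 10.1% held both. Of the 3 annotated coding transcripts of Ssbp2, 1 reaches the matches. The table counts reads per gene, so it does not tell which of these transcripts the cells used.

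Counts were scaled to a common library total with the TMM factors of edgeR (normalized CPM), a unit in which libraries can be compared for the same gene. The library totals ran from 35133308 to 47089725 counts, at which 3 counts correspond to 0.0637 to 0.0854 CPM. Genes typical of the labelled cells (Kit, Fcgr3, Mpo, Ptprc, Hoxa9, Meis1, Ly6c2) were expressed in all libraries, their list of 9 summing to between 1420 and 2749 CPM. The others of that list were Cd34, with 37 counts in all, and Itgam, with 6 counts and 99.9% of its body inside another gene. The 6 erythroid markers together reached at most 0.0617 CPM, with Hbb-bt, Hbb-bs and Alas2 at 0, of which Alas2 lies 100% inside another gene and could not be counted. The 4 T cell markers ran from 0.218 to 0.627 CPM, the 4 B cell markers from 0.637 to 1.39 CPM (Ms4a1 at 0, but 100% inside another gene), and the 4 stromal markers from 0.0686 to 0.533 CPM. In MLL-AF9-i139, the labelled list summed to 1420 to 1678 CPM without and 2424 to 2749 CPM with DOX. The list did not move as a whole. Mpo went from 537.1 ± 107 to 1406 ± 229 CPM, and the means of Fcgr3 and Ptprc were higher too. Those of Hoxa9, Meis1 and Ly6c2 were lower with DOX, and that of Kit was about level. With the clone in the model, 3 genes of the list (Mpo, Fcgr3 and Cd34) were higher and 1 (Hoxa9) lower. That fit called 12.4% of all genes. Cd34 rested on few reads: 0, 1 and 0 counts without DOX in clones 1, 2 and 3 and 20, 8 and 3 with. The 6 neutrophil markers ran from 1314 to 2130 CPM without and 1230 to 2856 CPM with DOX, the 6 mast cell and basophil markers from 8.08 to 10.4 and 13.8 to 15.8 CPM, the 6 megakaryocyte markers from 3.11 to 5.30 and 6.45 to 8.52 CPM, and the 4 macrophage markers from 1.67 to 3.54 and 2.31 to 14.4 CPM. C1qa, Ppbp, Fcer1a, Cma1, Tpsb2 and Prss34 were at 0 throughout. The mast cell and basophil sum was nearly all Mcpt8, with 9.01 ± 1.23 CPM without and 14.5 ± 1.13 CPM with DOX. The neutrophil sum was mostly Elane (1471 ± 474 and 1531 ± 986 CPM), and Ngp went from 59.3 ± 18.6 to 148.8 ± 42.4 CPM. Once the clone was added, 1 neutrophil (Ngp), 1 mast cell and basophil, 2 megakaryocyte and 1 macrophage marker were called higher and 0 lower. The part of these cell types in the values below was not tested, and in bulk RNA fewer cells with a transcript cannot be told apart from less of it per cell.

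Ssbp2 (ENSMUSG00000003992, chr13:91460283-91703429, plus strand, GRCm38) rose in each MLL-AF9-i139 clone. Without DOX its level was 38.7, 30.7 and 31.5 normalized CPM in clones 1, 2 and 3, and with DOX it was 578.3, 479 and 293.5 CPM. The lowest DOX-treated library thus stood far above the highest untreated one, and clone 3, treated for 72 h, rose least. All treated clones were above all untreated clones for 11.8% of the 19223 genes tested. The group means were 33.6 ± 4.41 CPM and 450.2 ± 145 CPM (SD, n = 3 clones), a 13.5-fold difference (log2 fold change 3.76, 95% interval 3.17 to 4.35, edgeR). By clone the log2 change was 3.90, 3.96 and 3.22. In raw counts, the clones had 1883, 1343 and 1243 without DOX and 27691, 18848 and 11563 with DOX, so counting error was small beside the spread between clones.

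In the control construct, Ssbp2 changed much less, and this contrast did not choose the gene. Untreated MLL-AF9-ieGFP cells had 34.9 CPM at 48 h and 28.5 CPM at 72 h, and DOX-treated cells had 51.1 and 40.5 CPM. The treated libraries were both above the untreated ones, as were those of 14% of the 20269 genes tested. The log2 fold change was 0.53 (95% interval -0.05 to 1.11) and did not pass edgeR's quasi-likelihood test (adjusted p = 1, Benjamini-Hochberg), in which 0% of genes passed and 259 had an unadjusted p under 0.05. With the time point as a block the interval was 0.18 to 0.87 and the adjusted p was again 1 (edgeR, 0% passed). The change in MLL-AF9-i139 exceeded that in MLL-AF9-ieGFP by 3.22 on the log2 scale (95% interval 2.46 to 3.97), given as a description because the first of these changes chose the gene. For this difference 0.00493% of all genes passed. Grouped by the time of the DOX-treated cultures, the excess was 3.38 at 48 h (mean of clones 1 and 2) and 2.71 at 72 h (clone 3 only). The untreated MLL-AF9-i139 cultures have no stated time, so they are not matched in time.

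Before DOX the constructs had similar levels of Ssbp2: 33.6 ± 4.41 CPM in MLL-AF9-i139 (n = 3 clones) and 31.7 ± 4.53 CPM in MLL-AF9-ieGFP (n = 2 time points of 1 clone). The log2 difference was 0.08 (95% interval -0.45 to 0.61, adjusted p = 1, edgeR), in a comparison that called 0.0444% of 20269 genes. The interval thus leaves room for a difference of either sign. Construct and clone cannot be told apart here.

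**Figure D1:**
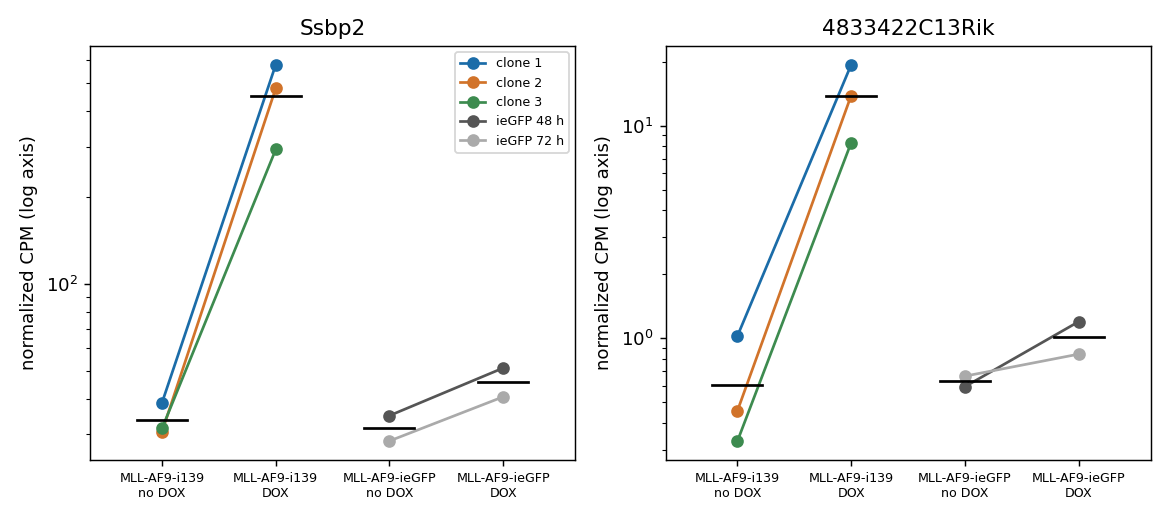
Normalized CPM (log axis) of Ssbp2 (left) and 4833422C13Rik (right) in every library, with lines joining the untreated and DOX-treated cultures of 1 clone or time point and black bars at the group means. The DOX-treated MLL-AF9-i139 clones sit between 293.5 and 578.3 CPM for Ssbp2, and all other libraries between 28.5 and 51.1 CPM.

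4833422C13Rik (ENSMUSG00000074782, chr13:91701665-91741872, minus strand) is annotated as an antisense RNA. Its body overlaps the last 1765 bases of Ssbp2 and runs 38.4 kb past them. It had 1.03, 0.457 and 0.329 CPM in untreated clones 1, 2 and 3 and 19.4, 13.9 and 8.33 CPM with DOX. All treated clones were thus above all untreated ones, as for 11.8% of the 19223 genes tested. The means were 0.605 ± 0.372 and 13.9 ± 5.52 CPM (SD, n = 3), a log2 fold change of 4.51 (95% interval 3.39 to 5.63), with 4.17, 4.78 and 4.47 in the 3 clones. At 48 h and 72 h, untreated MLL-AF9-ieGFP cells had 0.593 and 0.664 CPM and treated ones 1.20 and 0.843 CPM. That log2 change of 0.70 (95% interval -0.47 to 1.87) did not pass the test (adjusted p = 1, edgeR).

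The counts of 4833422C13Rik were a small share of those of Ssbp2 in every library. The share was 2.66%, 1.49% and 1.05% in untreated clones 1, 2 and 3 and 3.35%, 2.90% and 2.84% in the treated ones. The MLL-AF9-ieGFP libraries had shares of 1.70% and 2.33% when untreated and of 2.35% and 2.08% under DOX. The strand setting of the counting is not given in the sources used here. Of 744 protein-coding genes that lie inside a gene of the opposite strand only, 97% had 0 counts in all libraries, against 24.9% of 11686 free of any overlap, which is what counting both strands together and dropping reads over overlapping gene bodies would give. Reads of the antisense RNA and reads that ran on past the end of Ssbp2 therefore cannot be told apart, and the value of Ssbp2 leaves out its last 1765 bases, with 77.9% of its exon bases outside other genes.

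Because the overlapping pair moved together, the bases before each annotated start are shown. The windows come from RefSeq (GRCm38.p6), and bases of annotated GENCODE exons were left out of what is shown. That of 4833422C13Rik ends where its RefSeq first exon begins. That of Ssbp2 ends 47 bases before its RefSeq start, since those 47 bases lie in a GENCODE exon. The RefSeq start of Ssbp2 lies downstream of the GENCODE start used for the coordinates above, so the window shown lies inside the GENCODE gene. The motifs searched were the E-box CANNTG, bound by basic helix-loop-helix proteins, and the GATA motif as AGATAA or TGATAA, on both strands, from 250 bases before to 50 after the start. CAGGTG and CAGCTG, searched as well, are forms of CANNTG.
Ssbp2, chr13:91460847-91461049, plus strand: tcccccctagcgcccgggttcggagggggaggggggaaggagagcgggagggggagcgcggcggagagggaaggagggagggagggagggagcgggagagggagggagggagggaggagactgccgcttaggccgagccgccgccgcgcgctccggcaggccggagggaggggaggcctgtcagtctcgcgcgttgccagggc
4833422C13Rik, chr13:91741873-91742122, minus strand: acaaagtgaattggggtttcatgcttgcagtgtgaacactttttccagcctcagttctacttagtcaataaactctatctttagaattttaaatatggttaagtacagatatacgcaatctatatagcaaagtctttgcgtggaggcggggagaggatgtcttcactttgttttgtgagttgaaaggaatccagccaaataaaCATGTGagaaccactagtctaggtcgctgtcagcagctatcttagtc

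The shown bases of Ssbp2 are 76.4% G and C and those of 4833422C13Rik 39.6%. Capitals mark the 1 CANNTG in the second sequence, and the first held neither motif. Over the RefSeq windows of 9 of the 10 genes, 8 of 14 held a CANNTG and 3 of 14 a GATA motif, against 72.3% and 18.6% of all 32851 windows. CAGGTG was in 1 of the 14 and CAGCTG in 2, against 20.2% and 16.3%. These are matches of letters and not measured binding.

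The other genes near Ssbp2 did not pass the test. Within 500 kb, 7 further genes had at least 10 counts over the 10 libraries. Atg10, an autophagy gene 236.3 kb before Ssbp2, had 57.1 ± 10.7 CPM without and 60.7 ± 6.81 CPM with DOX (log2 fold change 0.11, 95% interval -0.25 to 0.46). Zcchc9, 93.1 kb after it, had 27.1 ± 0.305 and 23.7 ± 2.08 CPM (-0.18, interval -0.44 to 0.08). Gm47381 had 2.35 ± 0.267 and 2.31 ± 0.574 CPM (-0.01, interval -0.58 to 0.56). The adjusted p of these 3 was 0.742, 0.406 and 0.985 (edgeR). Their intervals leave no room for a change as large as that of Ssbp2. Acot12, whose body overlaps the start of 4833422C13Rik, A830009L08Rik, Ckmt2 and Rasgrf2 had 17, 30, 68 and 106 counts in all, which left wide intervals. That of Acot12 (log2 fold change 2.17, 95% interval -0.58 to 4.93) leaves room for a change as large as that of Ssbp2. The intervals of A830009L08Rik, Ckmt2 and Rasgrf2 ended at 1.12, 1.72 and 2.83.

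**Figure D2:**
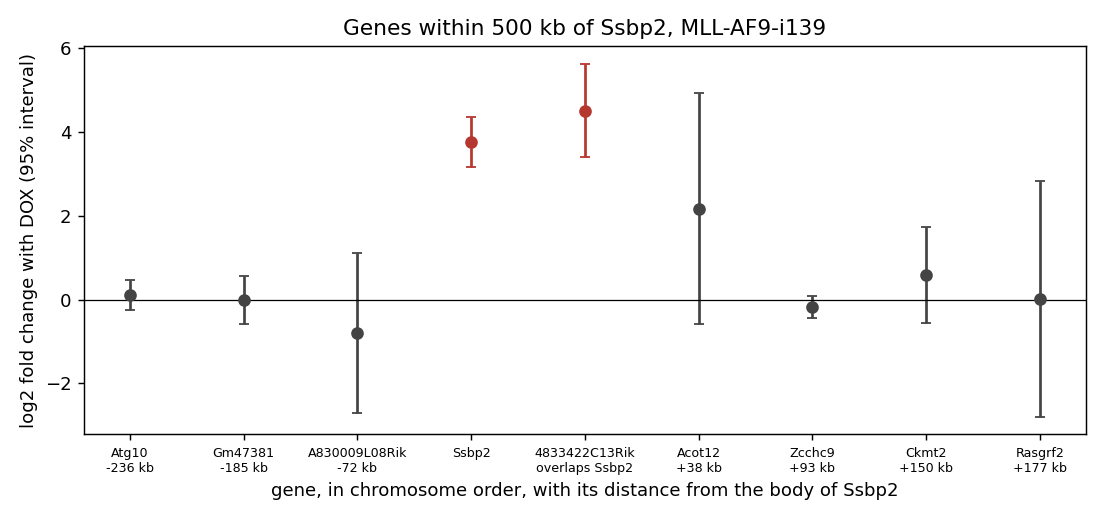
Log2 fold change with DOX in MLL-AF9-i139 (points, edgeR) with 95% intervals for Ssbp2 and the genes within 500 kb that had at least 10 counts, in chromosome order with their distance from Ssbp2. Ssbp2 (3.76) and 4833422C13Rik (4.51) stand above Atg10 (0.11), Gm47381 (-0.01) and Zcchc9 (-0.18), and the poorly counted genes have wide intervals.

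The paralogs of Ssbp2 kept to a narrower range. Ssbp3 (ENSMUSG00000061887, chr4:106910701-107049694, plus strand) encodes another LDB1-binding protein. It had 106, 96.2 and 88.7 CPM without DOX and 107, 104 and 95.5 CPM with DOX in clones 1, 2 and 3, so the groups overlapped. Its log2 fold change was 0.09 (95% interval -0.14 to 0.32, adjusted p = 0.655, edgeR). The test called 12 of 19223 genes in this comparison (0.0624%), so that passing it was rare. In MLL-AF9-ieGFP the log2 change of Ssbp3 was 0.07 (95% interval -0.18 to 0.32), and the difference between the constructs was 0.01 (95% interval -0.32 to 0.33).

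Ssbp4 (ENSMUSG00000070003, chr8:70597490-70608872, minus strand) varied more among clones. It had 52.4, 57.0 and 70.0 CPM without and 42.7, 51.1 and 73.3 CPM with DOX in clones 1, 2 and 3. The groups overlapped, with clone 3 the highest in each. The log2 fold change was -0.09 (95% interval -0.56 to 0.38, adjusted p = 0.845, edgeR), and by clone it was -0.30, -0.16 and 0.07. In MLL-AF9-ieGFP it was 0.17 (95% interval -0.35 to 0.68). No 50-base word is shared between the annotated transcripts of Ssbp2, Ssbp3 and Ssbp4 (0 in each of the 3 pairs), so a read of that length from one exonic sequence does not match another exactly.

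Levels of different genes were compared as CPM per kb of exon, as a description that rests on the change that chose Ssbp2. The full exon length was used, although only 77.9% of the exon bases of Ssbp2 and 64.1% of those of 4833422C13Rik lie outside other genes. Their levels per kb may thus be too low. Ssbp2 made up 11.2 ± 1.58% of the summed level of Ssbp2, Ssbp3 and Ssbp4 in the untreated MLL-AF9-i139 clones and 61.9 ± 11.2% with DOX (SD, n = 3). By clone the treated share was 70.9%, 65.3% and 49.4%. The sum itself was 37.8 ± 1.57 CPM per kb without and 89.5 ± 14.0 CPM per kb with DOX, and relative to the level of Ldb1 it was 1.83 ± 0.164 and 4.57 ± 1.40. The share of Ssbp2 in MLL-AF9-ieGFP at 48 h and 72 h was 10.9% and 8.53% untreated and 14.2% and 10.7% under DOX. Since introns appear to be counted too, the share was also computed per kb of gene body, where the long Ssbp2 gene weighs less: 2.31 ± 0.519% without and 25.4 ± 10.1% with DOX. The rise of the share holds for both lengths, and its size depends on the length chosen.

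**Figure D3:**
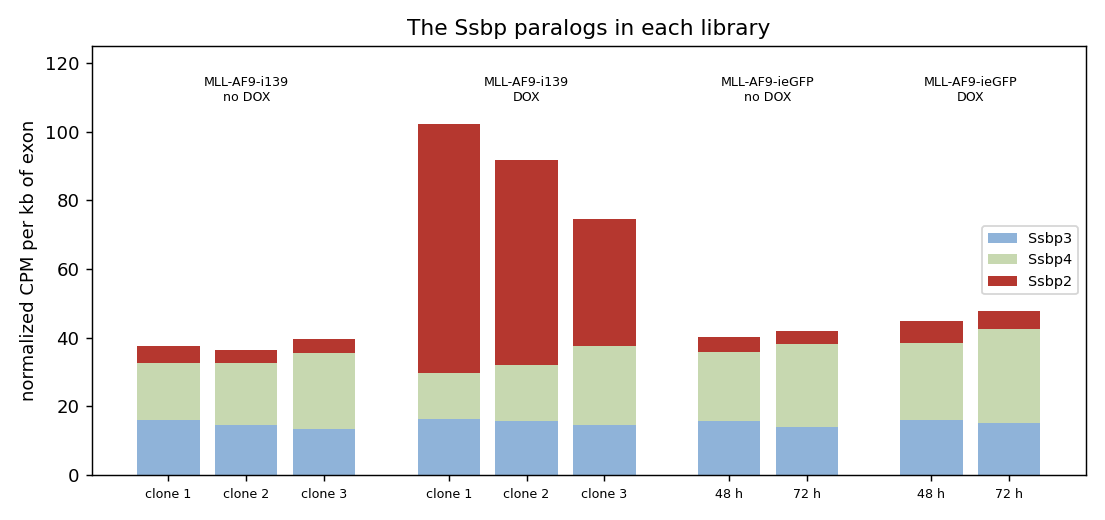
Stacked levels of Ssbp3, Ssbp4 and Ssbp2 in each library, in normalized CPM per kb of exon, by construct, DOX and clone or time point. The sum is 74.4 to 102 CPM per kb in the DOX-treated MLL-AF9-i139 clones and 36.5 to 47.6 CPM per kb in all other libraries, and Ssbp4 runs from 13.5 to 27.5 CPM per kb.

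Among the partners, Ldb1 (ENSMUSG00000025223, chr19:46031570-46045214, minus strand), the adaptor itself, had 85.6, 97.1 and 105 CPM without DOX and 80.1, 89.0 and 111 CPM with DOX in clones 1, 2 and 3. The groups overlapped, with clones 1 and 2 lower and clone 3 higher under DOX. Its log2 fold change was -0.02 (95% interval -0.35 to 0.30, adjusted p = 0.945, edgeR). In MLL-AF9-ieGFP it was 0.03 (95% interval -0.30 to 0.36).

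Tcf3 (ENSMUSG00000020167, chr10:80409514-80433647, minus strand), the E protein of the complex, had 84.6, 91.0 and 96.6 CPM without and 64.4, 73.0 and 99.3 CPM with DOX in clones 1, 2 and 3. It was lower with DOX in clones 1 and 2 (log2 -0.39 and -0.32) and about level in clone 3 (0.04), so the groups overlapped. Over the 3 clones its log2 fold change was -0.19 (95% interval -0.55 to 0.18, adjusted p = 0.541, edgeR). Without the DOX-treated library of clone 3 it was -0.38 (adjusted p = 0.0216, edgeR), in a fit that called 4549 genes, against 12 with all 6 libraries. In MLL-AF9-ieGFP the change was 0.13 (95% interval -0.25 to 0.52), and the difference between the constructs was -0.33 (95% interval -0.83 to 0.17, adjusted p = 0.656, edgeR). Without the DOX-treated library of clone 3 that difference was -0.53 (adjusted p = 0.0332, edgeR). Among the fits with libraries left out, that one called the most genes for this difference, against 1 in the main fit. Lower adjusted p values in that fit were thus not particular to Tcf3. Its estimate was also larger in size there, and the cause was not tested.

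Gata2 (ENSMUSG00000015053, chr6:88193891-88207032, plus strand) was low. It had 1.44, 1.46 and 2.99 CPM without and 2.90, 1.55 and 2.44 CPM with DOX in clones 1, 2 and 3, so that only clone 1 showed a sizeable increase (log2 0.99, against 0.08 and -0.29). Its log2 fold change of 0.25 (95% interval -0.60 to 1.09) did not pass the test (adjusted p = 0.747, edgeR). Untreated MLL-AF9-ieGFP had 3.35 ± 1.19 CPM (SD, n = 2), and the log2 difference of untreated MLL-AF9-i139 from it was -0.77 (95% interval -1.66 to 0.12, adjusted p = 1, edgeR).

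Lmo2 (ENSMUSG00000032698, chr2:103957986-103981878, plus strand) could be measured only in part, since 62.5% of its body lies inside other annotated genes and 4.5% of its exon bases lie outside them. On that remainder it had 1.08 ± 0.204 CPM without and 1.30 ± 0.067 CPM with DOX (SD, n = 3), with overlapping groups. The log2 fold change was 0.28 (95% interval -0.28 to 0.84, adjusted p = 0.554, edgeR). Lyl1 (ENSMUSG00000034041, chr8:84701457-84704715, plus strand) was listed at 0 in all libraries, but 100% of its body lies inside another gene, so the counting could not have seen it. Tal1 (ENSMUSG00000028717, chr4:115056426-115071755, plus strand) lies free of other genes and had 1 or 2 counts in 4 untreated libraries and 0 in the other 6. No library reached 3 counts of Tal1, so a difference was not detectable at this depth.

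**Figure D4:**
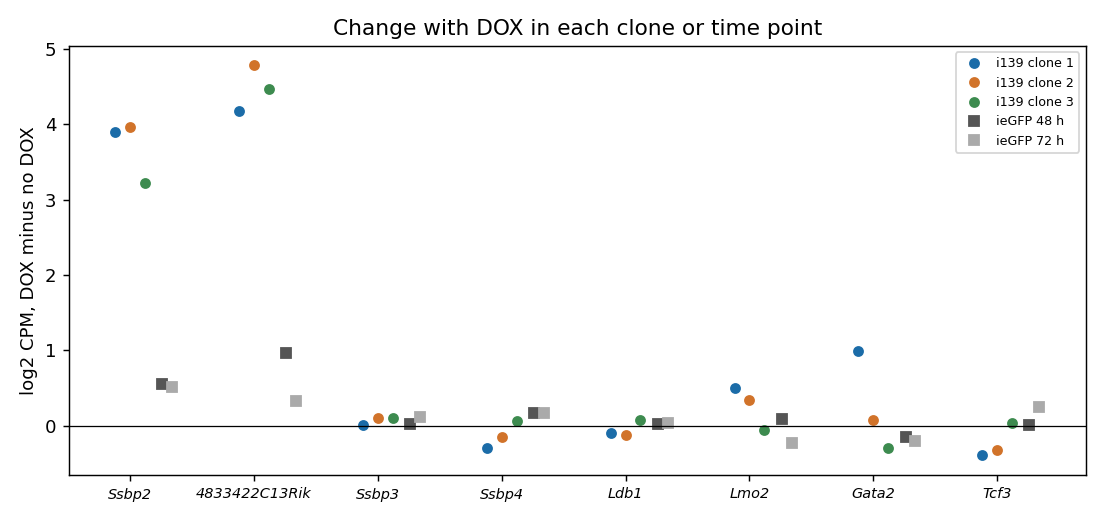
Difference of log2 CPM between the DOX-treated and untreated culture of each MLL-AF9-i139 clone (circles) and of each MLL-AF9-ieGFP time point (squares) for the 8 measured genes. Ssbp2 and 4833422C13Rik rise by 3.22 to 4.78 in the MLL-AF9-i139 clones, while the other 6 genes lie between -0.39 and 0.99 and change sign among clones, except Ssbp3, which lies between 0.02 and 0.11.

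By level per kb of exon, the untreated MLL-AF9-i139 clones ranked Tcf3 (22.5 ± 1.48 CPM per kb), Ldb1 (20.8 ± 2.12), Ssbp4 (18.9 ± 2.88), Ssbp3 (14.7 ± 1.28), Ssbp2 (4.21 ± 0.552), Gata2 (0.364 ± 0.165) and 4833422C13Rik (0.102 ± 0.063), leaving out Lmo2 (SD, n = 3). Neighbours in this order from Tcf3 to Ssbp4 lay within the sum of their SDs, and Ssbp4 and Ssbp3 differed by about that sum. With DOX, Ssbp2 came first (56.4 ± 18.1), followed by Ldb1 (20.3 ± 3.43), Tcf3 (19.5 ± 4.50), Ssbp4 (17.6 ± 4.99) and Ssbp3 (15.5 ± 0.881), and neighbours among these last 4 lay within the sum of their SDs. Then came 4833422C13Rik (2.34 ± 0.933) and Gata2 (0.425 ± 0.127). Per kb of gene body Ldb1 ranked first in each group (7.03 ± 0.717 in the untreated and 6.84 ± 1.16 in the treated clones), and Ssbp2 rose from 0.138 ± 0.018 to 1.85 ± 0.594.

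The wider network was examined through 39 genes listed by role, 25 of which had enough counts in MLL-AF9-i139. None passed the test without the clone in the model (edgeR, adjusted p under 0.05), where 0.0624% of all genes did. Unadjusted p (edgeR) fell under 0.05 for 5 of the 25 genes: Id2, Fli1, Hhex, Gfi1b and Gata3. It did so for 3959 of the 19223 genes tested, a similar share, so these 5 do not set the network apart. The median log2 fold change of the 25 genes was 0.05, beside 0.01 over all genes tested. Adding the clone to the model, 3 of the 25 (Id2, Fli1 and Gfi1b) were higher and 0 lower, in a fit that called 12.4% of all genes, and with DESeq2 1 (Id2) was higher, where 8.09% were called. None of the 6 measured members other than Ssbp2 and 4833422C13Rik passed in either fit. In MLL-AF9-ieGFP none of 26 passed with edgeR, without or with the block, or with DESeq2 (0%, 0% and 0.00493% of all genes). Of the 26, 1 (Epb42) had an unadjusted p under 0.05, with 1 for the block and 0 for DESeq2. Over all 20269 genes tested these numbers were 259, 389 and 79. The median of the 26 was -0.07, beside 0.01 over all genes.

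Among the inhibitors of E proteins, which pair with them and keep them from DNA, Id2 was higher with DOX in each clone. It had 2.82, 2.31 and 2.25 CPM without and 20.0, 11.3 and 5.31 CPM with DOX. The treated clones were all above the untreated ones, as for 11.8% of the 19223 genes tested. The log2 fold change was 2.33 (SE 0.44, adjusted p = 0.0934, edgeR), and it was 2.17 with the block (adjusted p = 0.0197, edgeR). In MLL-AF9-ieGFP it stayed at 2.24 to 3.15 CPM, and the difference between the constructs of 2.34 had an adjusted p of 0.527 (edgeR), 0.0703 with the block and 0.0235 with DESeq2, which called 0.00493%, 0.187% and 0.409% of all genes. Id1 had 33.7 ± 2.70 and 37.9 ± 6.58 CPM and did not pass, while Id3 and Id4 had 1 and 0 counts in all.

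The other helix-loop-helix partners did not pass either. Tcf12, an E protein, had 329.6 ± 58.6 CPM without and 304.3 ± 28.0 CPM with DOX, and Tcf4 62.0 ± 24.1 and 55.1 ± 21.9 CPM. Of the LIM partners and regulators, Rlim, the ubiquitin ligase that targets LDB1, had 359.1 ± 25.9 and 397.5 ± 27.2 CPM, and Lmo4 26.7 ± 5.90 and 24.8 ± 12.1 CPM. Ldb2, the paralog of Ldb1, had 10 counts in all 10 libraries.

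Of the GATA family, Gata1 had 47 counts in all, and Gata3 had 3.00 ± 0.135 CPM without and 2.13 ± 0.274 CPM with DOX (log2 fold change -0.48, SE 0.21, adjusted p = 0.242, edgeR). Zfpm1 and Cbfa2t3 lie wholly inside other annotated genes and were listed at 0. Cbfa2t2, a corepressor of the ETO family, had 73.6 to 80.4 CPM without and 66.0 to 81.6 CPM with DOX and did not pass.

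Of the other factors of the hematopoietic stem cell heptad, Fli1, an ETS factor, had 633.4 ± 84.4 CPM without and 854.9 ± 115 CPM with DOX. Its log2 fold change of 0.45 (SE 0.14) had an adjusted p of 0.143 (edgeR) and, with the block, 0.0314. Runx1 had 373.8 ± 75.5 and 478.1 ± 116 CPM (log2 fold change 0.37, SE 0.21) and did not pass in either fit. Erg had a log2 fold change of 0.30 (SE 0.22).

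Of 15 genes known to be bound by the complex in blood cells, 9 could be tested in MLL-AF9-i139 and 1 passed with the block, Gfi1b, a repressor needed in erythroid and megakaryocytic cells. It rested on few reads: 24, 7 and 0 counts with DOX in clones 1, 2 and 3 and 1, 0 and 0 without, so clone 3 did not share it. Kit, the SCF receptor, had 142.8 ± 3.37 and 143.9 ± 17.9 CPM. Hhex had 22.7 ± 10.7 and 37.2 ± 3.78 CPM (log2 fold change 0.73, SE 0.29, adjusted p = 0.213, edgeR), and Klf1 2.09 ± 0.277 and 1.69 ± 0.350 CPM.

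Over the 10 libraries, the genes most like Ssbp2 were found by Pearson's r of log2 CPM among 11876 genes with a mean of at least 1 CPM, as a description in which all genes share libraries and depth. The 5 highest outside the 10 were Wdfy1 (0.991), Slc29a3 (0.985), Angptl4 (0.983), Serpinb9g (0.981) and Abcc4 (0.980), with Spearman's rho from 0.830 to 0.939. Abcc4, a transporter of cyclic nucleotides and drugs, went only from 221.7 ± 11.4 CPM without to 301.1 ± 23.4 CPM with DOX in MLL-AF9-i139, whereas Angptl4, a lipoprotein lipase inhibitor, went from 20.0 ± 1.79 to 203.3 ± 92.2 CPM. A high r thus says that the order and spacing of the libraries were alike and not that the change was as large. Wdfy1, an endosomal adaptor, went from 29.6 ± 3.47 to 107.9 ± 31.1 CPM, and Slc29a3, a nucleoside transporter, from 23.4 ± 0.756 to 82.2 ± 25.1 CPM.

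The lowest r were those of Hnrnpu (-0.985), Prkx (-0.982) and Ubr7 (-0.981). Hnrnpu, a nuclear RNA-binding protein, had 1313 ± 23.9 CPM without and 1054 ± 32.0 CPM with DOX. Of the members, 4833422C13Rik had an r of 0.987 with Ssbp2, Lmo2 0.602, Ssbp3 0.391, Gata2 -0.149, Ldb1 -0.269, Ssbp4 -0.539 and Tcf3 -0.696. Spearman's rho was, in the same order, 0.903, 0.527, 0.6, -0.2, -0.297, -0.382 and -0.176. By ranks the relation was thus much weaker for Tcf3, weaker for Ssbp4 and stronger for Ssbp3.

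**Figure D5:**
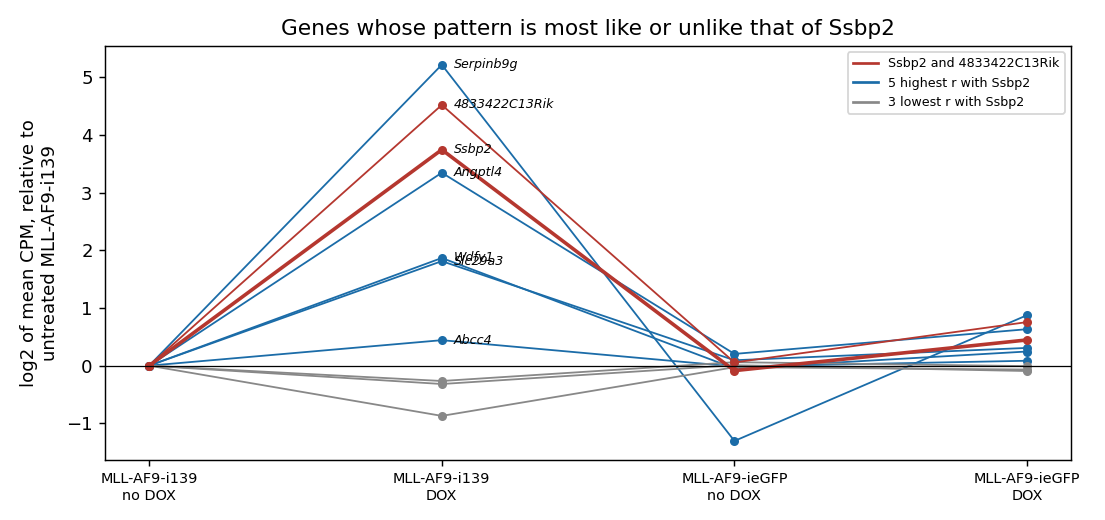
Log2 of the mean normalized CPM in each group relative to untreated MLL-AF9-i139, for Ssbp2 and 4833422C13Rik, the 5 genes with the highest and the 3 with the lowest Pearson's r with Ssbp2 over the 10 libraries. In DOX-treated MLL-AF9-i139 the genes with high r rise by unequal amounts, from Abcc4 to Serpinb9g, and the 3 with the lowest r fall below 0.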

How the data were processed

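RNA sequencing counts of 10 mouse libraries were analysed (groups n = 3, 3, 2 and 2, from the sample labels). The authors prepared ribosomal RNA-depleted libraries, mapped reads to GRCm38 with STAR 2.5.3e, counted them with FeatureCounts 1.6.0 on GENCODE M15, and deposited raw counts per gene without normalization. The strand setting is not given in the sources used here. The deposited tables held equal counts for these libraries (0 differing values), and 14 other columns of samples were not used. Gene positions came from GENCODE M21 (52403 identifiers matched).

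Genes with at least 10 counts were tested with edgeR 4.0.16 (quasi-likelihood, TMM, Benjamini-Hochberg, R 4.3.3). MLL-AF9-i139 was fitted on its 6 libraries, and the other contrasts came from 1 fit of 4 groups over 10 libraries. Per-clone log2 values used a prior count of 2. Thresholds were an adjusted p under 0.05. The test was checked on simulated data. Libraries were drawn independently, without an effect shared by the libraries of 1 clone, and the changed genes left out the lowest by abundance. Of 100 genes given a log2 change of 1 it found 48% in MLL-AF9-i139 and 43% in MLL-AF9-ieGFP, and of 100 given 2 it found 89% and 72%. A gene that did not pass may thus still have changed. Alternatives were DESeq2 1.42.0, other size factors, filters, left-out libraries and a block.

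Clone numbers pair the MLL-AF9-i139 libraries, since both libraries of a number are the same clone by their labels. Across 19223 genes, their deviations from the group means correlated with r = 0.377, 0.285 and 0.411, and those of different clones with r from -0.312 to -0.044. Deviations from a mean of 3 clones sum to 0, so positive values of the first kind make the second kind negative on average. The second kind is thus no separate evidence. Picked colonies share 1 starting population as far as the labels tell, so p-values cover the spread between these cultures. Members and lists were chosen with earlier results of these data known. Genes were named as members, as genes of the network lists, as neighbours within 500 kb of Ssbp2 and as the 5 highest and 3 lowest by r with Ssbp2.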

Additional observations from a re-analysis of the deposited data

Results flagged for a closer look

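The change of Ssbp2 with DOX differed between the constructs: the interaction term exceeded 0 by 3.22 on the log2 scale, with all 3 MLL-AF9-i139 clones rising by more than either MLL-AF9-ieGFP time point. Since the rise in MLL-AF9-i139 chose the gene, the value is a description. It ran from 3.01 to 3.45 over the 19 alternatives. MLL-AF9-ieGFP is 1 clone, and whether other clones of that construct would behave alike was not tested.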

How the results depend on the processing

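The number of genes called with DOX in MLL-AF9-i139 (12) was 1234 in a fit of all 10 libraries, 1556 with DESeq2, 562 without a filter, 2 with at least 10 counts in every library, 2 without size factors (an alternative added after the data were seen) and 2381 with the replicate block, and it ran from 0 to 4549 with libraries or clones left out. In MLL-AF9-ieGFP 0 genes were called by edgeR (259 at an unadjusted p under 0.05), and 1, Gm18340 (named after its values were seen), with DESeq2 or without a filter. For the difference between the constructs the 1 gene, Ssbp2, became 83 with DESeq2, 71 without a filter, 38 with the block, 0 without size factors and 0 with at least 10 counts in every library, and 0 to 2244 with libraries left out, the highest without the DOX-treated library of clone 3. Between the untreated constructs the 9 genes became 44 with DESeq2, 37 without a filter and 4 with at least 10 counts in every library, and 2 to 30 with libraries left out. The cause of these shifts was not tested. Whether Ssbp2 was called for the difference between the constructs depended on the fit. That call is no test of Ssbp2, since its change in MLL-AF9-i139 chose it.

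The member values moved less. No member called in any fit changed sign, and of 432 log2 fold changes of the 6 measured members other than Ssbp2 and 4833422C13Rik under alternatives, 2 passed, both of Tcf3 without the DOX-treated library of clone 3. The log2 fold change of Ssbp2 in MLL-AF9-i139 ran from 3.53 to 4.0 over 16 alternatives and that of 4833422C13Rik from 4.19 to 5.14. The block changed no call of the other members. Of 64 levels under other size factors 5 moved by more than 1 SD, those of Ldb1 and Tcf3 in MLL-AF9-ieGFP, where the SD rests on 2 libraries. Of 32 ranks by level, 19 changed per kb of gene body. With few clones, small changes of low genes such as Gata2 and Lmo2 were not detectable.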
